A study of Canis lupus familiaris with 4 samples.

Results

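Dog chromosomes 19 and 32 carry few sites of open chromatin in MDCKII cells, an epithelial line from canine kidney that forms polarised monolayers in culture. The assay was ATAC-seq: the enzyme Tn5 cuts accessible DNA and leaves sequencing adapters at the cuts. The members were all 1148 peaks that the authors' table places on these chromosomes, 576 on chromosome 19 and 572 on chromosome 32, of 59081 peaks in the whole table. Peaks were 501 bp wide, and positions are those of CanFam3.1, counted from 1. Reseeded libraries A and B came from monolayers kept for 7 d, detached and reseeded for 2 h. They were set against mature libraries A and B, from monolayers kept for 7 d and left in place. All 4 libraries carry wt in their sample names and share this cell line and growth medium, and no other agent is named. Whether libraries A and B of a group are separate cultures is not stated, so the p-values reflect how far these libraries vary, possibly for technical reasons alone. Sample names start with 193 in reseeded and with 133 in mature libraries, and any batch tied to that number and the reseeding itself cannot be told apart.

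Open chromatin marks promoters, enhancers and other sites where nucleosomes are displaced and proteins bind DNA. Such sites cluster in gene-rich chromatin. Long stretches without them are often gene-poor, replicate late and lie at the nuclear lamina, the protein meshwork under the nuclear envelope. Epithelial cells that are detached lose cell-cell and cell-matrix contacts and must spread again after seeding. The study is about invaginated nuclear envelopes and the placing of chromatin. Set beside that aim, these libraries show which sites are more or less open shortly after reseeding than in a mature monolayer. Peaks were not placed on genes, since no annotation of CanFam3.1 was used here, and marker genes of kidney epithelium were not examined for the same reason.

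The members were chosen by the number of peaks per Mb on their chromosomes, with earlier results of these data known, so their density and their chromosome-wide fold are given as descriptions with no test. Chromosome 19 had 10.7 peaks per Mb up to its last peak, the lowest of the 38 numbered chromosomes. Chromosome 32 had 14.7, behind chromosome 29 with 12.8 and chromosome 22 with 13.3, and just ahead of chromosome 36 with 14.8. The density counts the same peaks whose accessibility is compared. Total counts in peaks were 16906566 and 24015663 in reseeded libraries A and B, against 8759513 and 6253706 in mature libraries A and B. The detection floor was set at 3 counts, which in counts per 1e6 scaled by trimmed-mean factors (CPM) is 0.175 and 0.123 in reseeded A and B, and 0.348 and 0.486 CPM in mature A and B. Of the members, 1 peak at or under 3 counts in some libraries was not tested. It lay on chromosome 19 from 2389437 to 2389937 and had 3 and 6 counts in reseeded A and B, and 5 and 3 counts in mature A and B.

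The chromosomes are sparse in different ways. On chromosome 19, 12 of 54 steps of 1 Mb held no peak and a further 12 held 1 to 4 peaks. Gaps of over 1 Mb between neighbouring peaks numbered 12 there and added up to 23.8 Mb, or 44.3% of the chromosome up to its last peak. On chromosome 32, 3 of 39 steps were empty and 5 held 1 to 4 peaks. Its 4 gaps of over 1 Mb added up to 6.45 Mb, or 16.6%. Between the gaps peaks stood close together: 64.1% of chromosome 19 peaks lay in 12 steps with at least 20 peaks, and 57.3% of chromosome 32 peaks lay in 11 such steps. The median distance to the nearest other peak was 7.13 kb on chromosome 19 and 5.20 kb on chromosome 32, against 3.62 kb on the other numbered chromosomes. The 3 longest gaps of chromosome 19 ran from 42589670 to 46225038 (3.64 Mb), from 24340442 to 27751882 (3.41 Mb) and from 5817787 to 9220245 (3.402 Mb). Those of chromosome 32 ran from 13878201 to 17089555 (3.21 Mb), from 4431057 to 5543694 (1.11 Mb) and from 27063197 to 28173956 (1.11 Mb).

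After reseeding, peaks on both chromosomes were more often higher than lower. Chromosome 19 had 207 of 575 tested peaks that were called and at least 2-fold higher (36%), and chromosome 32 had 221 of 572 (38.6%), where 26.9% of all tested peaks passed. Called and at least 2-fold lower were 79 peaks on chromosome 19 (13.7%) and 54 on chromosome 32 (9.44%), where 15.0% of all tested peaks passed. At least 4-fold higher were 90 peaks on chromosome 19 (15.7%) and 103 on chromosome 32 (18.0%), beside 10.1% of all peaks, and at least 4-fold lower were 27 (4.70%) and 29 (5.07%), beside 6.04%. Calls rest on edgeR's quasi-likelihood test fitted to the whole table, with Benjamini-Hochberg adjusted p under 0.05. In either direction 493 peaks of chromosome 19 and 490 of chromosome 32 were called, 85.7% of each, close to the 84.1% of all tested peaks. The number called was thus near the background, while the direction was uneven: 610 were higher (53.2%, beside 42.3% of all peaks) and 373 lower (32.5%, beside 41.8%). Reseeded and mature libraries did not overlap at 538 peaks of chromosome 19 and 526 of chromosome 32, where 91.5% of all peaks had groups that did not overlap. Reseeded libraries were the higher ones at 655 of these members and the lower ones at 409, where 45.7% and 45.8% of all peaks were so.

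The median log2 fold (reseeded over mature) was 0.38 on chromosome 19 and 0.51 on chromosome 32, against -0.01 on the other numbered chromosomes. Every reseeded library stood above every mature one by this measure: the medians of log2 ratios with 0.5 CPM added were 0.35 for reseeded A over mature A and 0.30 for reseeded B over mature B on chromosome 19, and 0.44 and 0.49 on chromosome 32. The other pairings gave 0.35 each on chromosome 19 and 0.50 and 0.48 on chromosome 32. The shift came with a lower mature level and a reseeded level near that of the rest of the genome. Median CPM was 11.8 in reseeded and 9.98 in mature cells on chromosome 19, 12.7 and 8.99 on chromosome 32, and 12.8 and 12.5 on the other numbered chromosomes. Mature levels were under 5 CPM at 29.2% of chromosome 19 peaks and 32.2% of chromosome 32 peaks, against 19.5% elsewhere. Reseeded levels were under 5 CPM at 7.12% and 6.64%, against 7.99% elsewhere. Chromosomes 29, 22 and 36, next to them in order of density, had median log2 folds of 0.76, 0.35 and 0.38 and shares of 42.4%, 36.2% and 37.4% of peaks with a gain of at least 2-fold, beside 9.91%, 13.4% and 9.47% with a loss.

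The size of this shift depended on the scaling. Under loess offsets that follow each peak's mean log2 CPM, the median log2 fold was 0.03 on chromosome 19 and 0.08 on chromosome 32, while that of all peaks moved by -0.10 to -0.11. At least 2-fold higher were then 21.0% of the members and 16.6% of peaks on the other numbered chromosomes, and at least 2-fold lower 13.3% and 16.4%. The mature libraries also differed from each other at the gained peaks. Mature B exceeded mature A at 141 of the 193 members at least 4-fold higher (73.1%), with a median log2 ratio of 0.28. It did so at 63 of the 164 members that were not called (38.4%), with a median of -0.06. On the other numbered chromosomes these shares were 77.5% and 49.2%, with medians of 0.30 and -0.004. The median log2 fold of the members was 0.41 when mature A was dropped and 0.44 when mature B was dropped, beside 0.44 with both kept. For peaks on the other numbered chromosomes the medians in the same order were 0.001, -0.018 and -0.007. The part of this difference in the gains was not tested beyond these values.

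**Figure D1:**
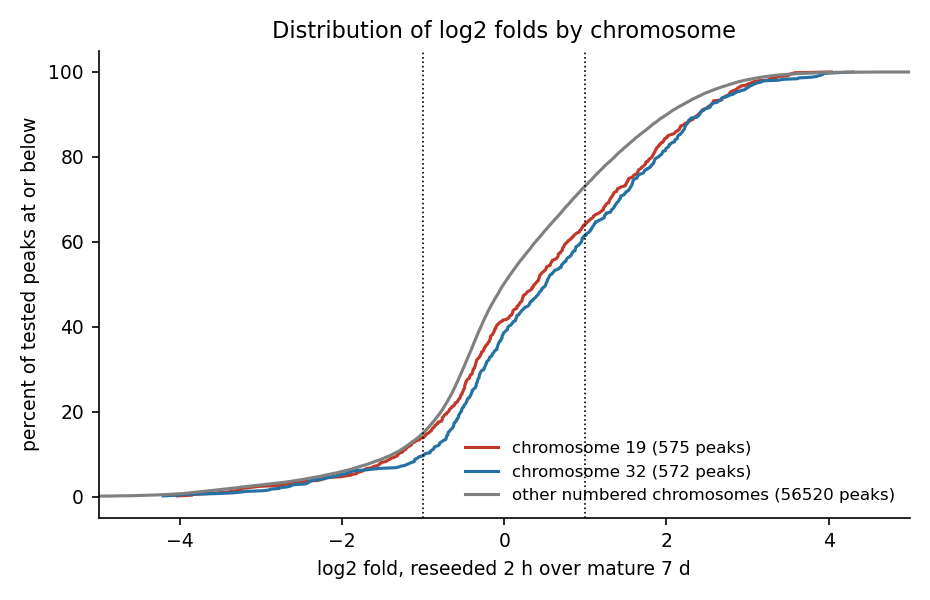
Cumulative distribution of log2 fold, reseeded 2 h over mature 7 d, for tested peaks of chromosome 19, chromosome 32 and the other numbered chromosomes, with dotted lines at 2-fold lower and 2-fold higher. The medians are 0.38, 0.51 and -0.01, and losses past the left line are fewest on chromosome 32, with 9.44% of its peaks.

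Summed over a chromosome, the gain was smaller than at the typical peak. Peaks of chromosome 19 held 0.862% and 0.863% of all counts in reseeded A and B, against 0.766% and 0.751% in mature A and B. Peaks of chromosome 32 held 0.889% and 0.884% in reseeded A and B, against 0.742% and 0.719% in mature A and B. On both chromosomes each reseeded library was above each mature one. The mean share in reseeded cells was 1.14 times that in mature cells on chromosome 19 and 1.21 times on chromosome 32, a log2 ratio of 0.19 and 0.28, below the peak medians of 0.38 and 0.51. Shares use total counts, while those medians use trimmed-mean factors. With library size as the sole scaling the peak medians were 0.43 and 0.56. Sums are weighted to the strong peaks. Among members with a mean CPM over 20.8, the median log2 fold was -0.34, and 23 of 201 were at least 2-fold higher. Among those under 8.28 the median was 1.25, and 213 of 372 were at least 2-fold higher. On the other numbered chromosomes the same level classes had medians of -0.30 and 0.95. Between these classes, members from 8.28 to 12.5 CPM had a median of 0.46, against -0.02 on the other numbered chromosomes. From 12.5 to 20.8 CPM the medians were 0.15 and -0.13.

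**Figure D2:**
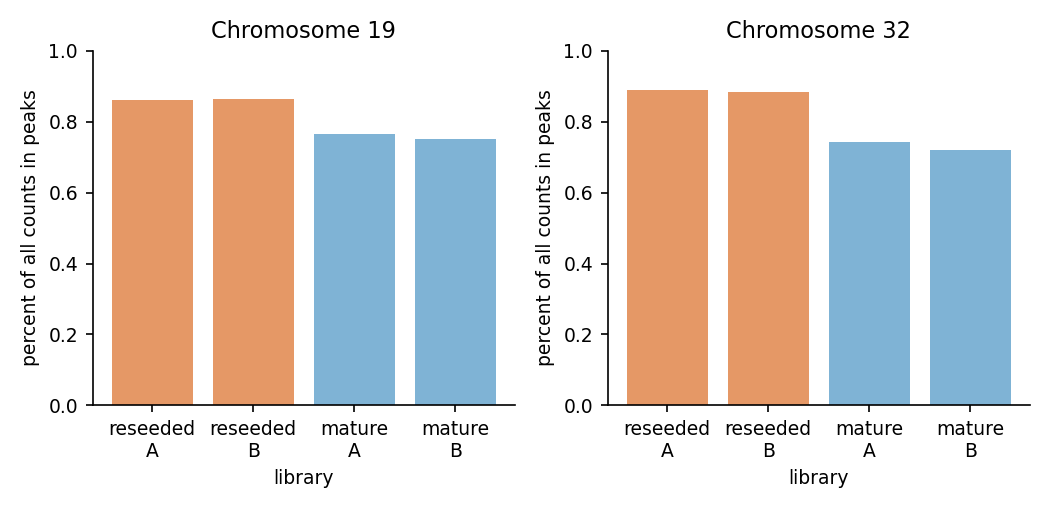
Percent of all counts in peaks that fell on chromosome 19 and on chromosome 32, a bar for each library. On both chromosomes the reseeded bars, at 0.862 to 0.889%, stand above the mature ones, at 0.719 to 0.766%.

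Levels and spacing of the gained and lost peaks are described here, with the level fixed in part by the choice on fold. The 193 members at least 4-fold higher had median CPM of 13.6 in both reseeded libraries, against 1.97 and 2.43 in mature A and B. Such peaks on the other numbered chromosomes had medians of 15.1 CPM in both reseeded libraries, against 2.20 and 2.92 CPM in mature A and B. The 56 members at least 4-fold lower had medians of 1.98 and 2.15 CPM in reseeded A and B, against 14.3 and 15.8 CPM in mature A and B. The median log2 fold was 2.52 in the first set and -2.72 in the second. Gained peaks stood more alone: the nearest other peak was a median of 10.8 kb away from members at least 4-fold higher, 5.28 kb from those at least 4-fold lower and 4.82 kb from those called with a fold under 2. On the other numbered chromosomes the order of gains and losses was the same, with 7.54 kb, 2.92 kb and 2.98 kb.

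Among the pooled members, gains were more frequent in thin steps and where the nearest peak was far. In steps with 5 to 9 peaks, 50 of 107 tested members had a gain of at least 2-fold (46.7%). In steps with at least 30 peaks it was 120 of 381 (31.5%). On the other numbered chromosomes these shares were 36.7% and 23.5%. The member share was above that of the other numbered chromosomes in all 5 density classes. The members had fewer peaks in the densest class, 33.2% against 73.3% elsewhere. The chromosomes had unlike values there. In steps with at least 30 peaks, 27.4% of chromosome 19 peaks had a gain of at least 2-fold and 16.8% a loss of that size, against 37.4% and 11.0% on chromosome 32. The share of gains on chromosome 32 was nearly level from 10 peaks per step upward. It was 38.5% in steps of 10 to 19 peaks and 37.0% in steps of 20 to 29. Counted by distance, 21.7% of members with another peak within 1 kb were at least 2-fold higher, 33.5% at 1 to 5 kb, 43.4% at 5 to 20 kb, 44.2% at 20 to 100 kb and 46.7% beyond, the last from 45 peaks. Elsewhere the shares were 13.6%, 25.6%, 32.9%, 37.5% and 37.0%. Losses ran the other way on chromosome 19, where 18 of 65 peaks within 1 kb of another were at least 2-fold lower (27.7%), against 12 of 119 on chromosome 32 (10.1%). The share on the other numbered chromosomes, 19.2%, lay between them.

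**Figure D3:**
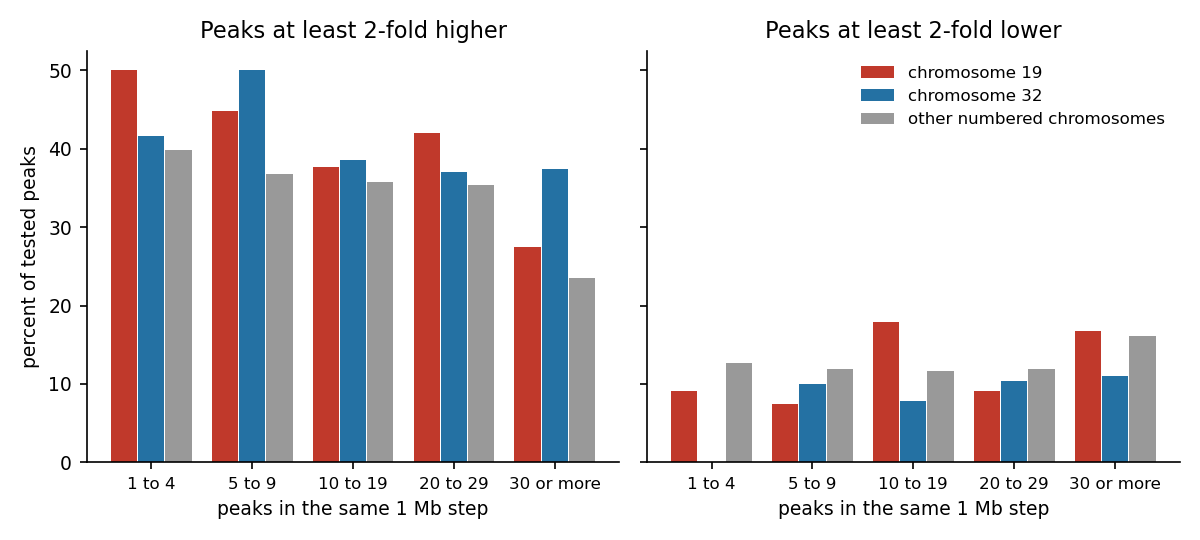
Percent of tested peaks at least 2-fold higher (left) and at least 2-fold lower (right) after reseeding, by the number of peaks in the same 1 Mb step, for chromosome 19, chromosome 32 and the other numbered chromosomes. In each of the 5 classes both member bars for gains exceed the grey bar, and chromosome 32 has no loss in its 12 peaks in steps of 1 to 4 peaks.

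Sums of 1 Mb steps were called higher or lower in most cases tested, which does not mean that their peaks moved alike. Steps with at least 5 peaks were tested on summed counts, 30 on chromosome 19 and 31 on chromosome 32. Trimmed-mean factors were fitted anew on these windows. The CPM sums given for windows use those factors and differ somewhat from sums of peak CPM. By edgeR's quasi-likelihood test over all such windows of the genome, 53 of the 61 member windows were called, 86.9%, the same share as the 86.9% of all windows. On chromosome 19, 15 were higher and 11 lower. On chromosome 32, 20 were higher and 7 lower. Among all windows 44.3% were higher and 42.6% lower, so chromosome 19 (50.0% and 36.7%) stood nearer to the background than chromosome 32 (64.5% and 22.6%). At least 2-fold higher were 3 windows of chromosome 19 and 2 of chromosome 32, or 8.20% of the member windows beside 2.50% of all windows. These shares were not compared at like numbers of peaks. Of the 61 member windows 15 held only 5 to 9 peaks, against 182 of 1666 on the other numbered chromosomes. At least 2-fold lower was 0 of 61, beside 1.33% of all windows, and the lowest log2 fold was -0.48. The split of called member windows, 35 higher and 18 lower, became 42 and 13 with library size as the sole scaling, and 26 and 25 with loess offsets. Over all steps that held a peak, gains of at least 2-fold outnumbered losses in 30 of 42 on chromosome 19 and in 32 of 36 on chromosome 32. Losses outnumbered gains in 7 steps of chromosome 19 and in 1 of chromosome 32. On the other numbered chromosomes gains outnumbered losses in 72.5% of steps and losses gains in 18.5%, near the 71.4% and 16.7% of chromosome 19, while chromosome 32 had 88.9% and 2.78%.

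**Figure D4:**
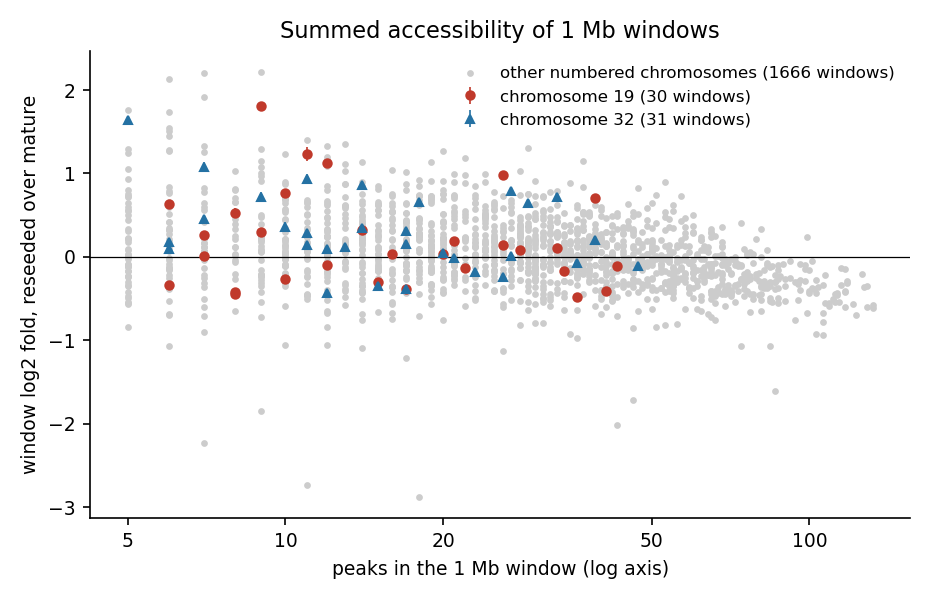
Window log2 fold, reseeded over mature, against the number of peaks in the window (log axis) for 1 Mb windows with at least 5 peaks, with the standard error as a bar on the member windows. Member windows lie between -0.48 and 1.81, and those at least 2-fold higher hold 5 to 12 peaks.

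Along chromosome 19 the highest windows were near the longest gap. From 47000001 to 48000000, on the far side of it, 9 peaks summed to 173.0 and 168.9 CPM in reseeded A and B, against 48.6 CPM in each mature library, a log2 fold of 1.81 (SE 0.05, adjusted p = 4.88e-07). Of these peaks 7 were at least 2-fold higher. From 46000001 to 47000000, the step that ends the gap, 11 peaks summed to 150.1 and 147.1 CPM in reseeded A and B, against 56.9 and 71.2 CPM in mature A and B (log2 fold 1.23, SE 0.08, adjusted p = 7.79e-06). The groups stood far apart in both windows, and in the second the mature libraries themselves differed. The step from 48000001 held 3 peaks, too few for a window. From 15000001 to 16000000, after an empty step, 12 peaks summed to 159.6 and 157.5 CPM in reseeded A and B, against 74.9 and 69.6 CPM in mature A and B (log2 fold 1.13, SE 0.05).

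Peak-rich steps of chromosome 19 differed among themselves. From 35000001 to 36000000, past 2 empty steps, 26 peaks summed to 420.5 and 424.6 CPM in reseeded A and B, against 204.8 and 224.6 CPM in mature A and B (log2 fold 0.99, SE 0.04, adjusted p = 7.63e-07), and 17 of them were at least 2-fold higher. The step that follows, from 36000001 to 37000000, held 39 peaks with sums of 537.0 and 539.6 CPM in reseeded A and B, against 319.0 and 343.9 CPM in mature A and B (log2 fold 0.71, SE 0.03). The step with the most peaks, 43 from 29000001 to 30000000, had 640.7 and 642.9 CPM in reseeded A and B, against 688.1 and 700.8 CPM in mature A and B (log2 fold -0.11, SE 0.02). With library size as the sole scaling this log2 fold was 0.00. Steps of like density were lower after reseeding. From 30000001 to 31000000, 36 peaks summed to 466.0 and 469.5 CPM in reseeded A and B, against 664.2 and 643.9 CPM in mature A and B (log2 fold -0.48, SE 0.02, adjusted p = 1.47e-06). From 22000001 to 23000000, 41 peaks summed to 598.6 and 592.3 CPM in reseeded A and B, against 785.2 and 795.3 CPM in mature A and B (log2 fold -0.41, SE 0.02). In each of these steps 11 peaks were at least 2-fold lower, while 9 and 7 were at least 2-fold higher. The other lowest windows were 52000001 to 53000000 (log2 fold -0.45, SE 0.06) and 2000001 to 3000000 (log2 fold -0.42, SE 0.04), with 8 peaks each.

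On chromosome 32 gains were spread over most of the length. The highest window, from 22000001 to 23000000, held 5 peaks with sums of 128.1 and 131.4 CPM in reseeded A and B, against 40.2 and 43.8 CPM in mature A and B (log2 fold 1.64, SE 0.06, adjusted p = 6.30e-07). From 4000001 to 5000000, 7 peaks summed to 77.3 and 81.4 CPM in reseeded A and B, against 37.6 and 37.7 CPM in mature A and B (log2 fold 1.08, SE 0.06). These windows were followed by 25000001 to 26000000 (11 peaks, log2 fold 0.94, SE 0.05) and 3000001 to 4000000 (14 peaks, log2 fold 0.86, SE 0.05). Gains of at least 2-fold were found at 4 of 5 peaks in the first window, and in the other 3 the counts were 5 of 7, 7 of 11 and 7 of 14.

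Losses on chromosome 32 were mild when summed. The lowest window, its last, from 38000001 to 39000000, had 189.8 and 187.1 CPM in reseeded A and B, against 248.9 and 260.4 CPM in mature A and B (log2 fold -0.43, SE 0.03, adjusted p = 1.13e-05). The next lowest were 6000001 to 7000000 (log2 fold -0.39, SE 0.03), 29000001 to 30000000 (-0.35, SE 0.04) and 30000001 to 31000000 (-0.24, SE 0.02). The steps from 28 to 31 Mb, all 3 called lower, form the longest stretch of lower windows on this chromosome. Of the 3 steps with the most peaks, that from 11000001 to 12000000 was higher, with 39 peaks and sums of 629.6 and 610.4 CPM in reseeded A and B, against 541.6 and 536.3 CPM in mature A and B (log2 fold 0.20, SE 0.02). The steps from 1000001 to 2000000 (47 peaks) and from 1 to 1000000 (36 peaks) had log2 folds of -0.11 (SE 0.03, adjusted p = 0.00564) and -0.08 (SE 0.02, adjusted p = 0.00932). With library size as the sole scaling they were 0.00 and 0.04, and both lost the call when either reseeded library was left out. Each of the 2 steps still held more peaks at least 2-fold higher than lower, 11 against 8 and 14 against 5. Scaled as for peaks, the first summed to 668.1 and 663.3 CPM in reseeded A and B, against 708.1 and 658.6 CPM in mature A and B. The second then summed to 631.1 and 625.4 CPM in reseeded A and B, against 629.9 and 630.7 CPM in mature A and B.

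A sum and the typical peak of a step could disagree, as seen in a step singled out after its values were known. From 17000001 to 18000000 on chromosome 19 the summed log2 fold was 0.26, while the median of its 7 peaks was 2.17. The peak from 17550314 to 17550814 had 39.4 and 37.7 CPM in reseeded A and B, against 57.6 and 51.7 CPM in mature A and B, and held 39.3% of the step's CPM in reseeded and 70.6% in mature cells. It was lower after reseeding, with a log2 fold of -0.52 (SE 0.08), and 5 of the other 6 peaks were at least 2-fold higher.

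The largest gains were taken from called members with a mean count of at least 50, a choice that by itself favours peaks weak in mature cells. On chromosome 19 the peak from 46225039 to 46225539, the first after the longest gap, had 325 and 462 counts in reseeded A and B, against 8 and 9 counts in mature A and B. That is 18.96 and 18.95 CPM in reseeded A and B, against 0.928 and 1.46 CPM in mature A and B, or a log2 fold of 4.03 with an SE of 0.22 (adjusted p = 1.25e-17). The peak from 47788370 to 47788870 had 22.7 and 21.6 CPM in reseeded A and B, against 1.86 and 1.78 CPM in mature A and B (log2 fold 3.59, SE 0.19). At both peaks each reseeded library was far above each mature one, though loess offsets left log2 folds of 2.51 and 2.81. The other 3 began at 18449257, 35661838 and 15379168, with log2 folds of 3.55, 3.52 and 3.51. Loess offsets left 2.43, 3.18 and 2.02 there. The last peak was 17.3-fold higher without mature A, beside 11.4-fold with it.

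On chromosome 32 the highest log2 fold was at 23114812 to 23115312. It had 483 and 629 counts in reseeded A and B, against 6 and 14 counts in mature A and B, or 28.2 and 25.8 CPM against 0.696 and 2.27 CPM (log2 fold 4.30, SE 0.21, adjusted p = 9.81e-19). The mature libraries differed here by more than in the other named gains, and the fold of 19.7 became 11.8 with mature A left out and 37.8 with mature B left out. The other 4 had log2 folds of 3.91 to 4.09, and 3 of them lay in the step from 33 to 34 Mb, at 33546245, 33553490 and 33805737. The fourth lay at 17271875 to 17272375. The peak from 33553490 to 33553990 had 140 and 164 counts in reseeded A and B, against 3 and 4 counts in mature A and B, a ratio of pooled counts of 15.5 (exact 95% counting interval 7.42 to 38.8). For it and the peak at 17271875, with 4 and 3 mature counts, loess offsets left log2 folds of 0.63 and 0.60 that were no longer called (edgeR, adjusted p = 0.319 and 0.342). The same offsets left 3.31 at 23114812, 2.47 at 33546245 and 1.75 at 33805737.

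Of the 10 largest losses by the same rule, 8 lay in steps with at least 30 peaks, which held 33.2% of the members. Losses of at least 4-fold as a class were less tied to such steps. They made up 5.77% of tested members there and 4.88% of all tested members. The share was 3.48% in steps of 20 to 29 peaks, 4.85% in steps of 10 to 19 and 5.61% in steps of 5 to 9. In steps of 1 to 4 peaks it was 5.88%, from only 34 peaks. While loess offsets made the named gains smaller, they made the named losses of chromosome 19 larger, with log2 folds of -4.77 to -6.00. On chromosome 32 they gave -5.91 at 11807351, -5.83 at 30339, -4.05 at 1415457, -3.60 at 1222485 and -3.33 at 32754. On chromosome 19 the peak from 30449185 to 30449685 had 1.11 and 1.39 CPM in reseeded A and B, against 21.7 and 20.1 CPM in mature A and B, or a log2 fold of -4.03 with an SE of 0.20 (adjusted p = 6.71e-19). The peak from 160181 to 160681 had 0.817 and 1.02 CPM in reseeded A and B, against 12.4 and 15.1 CPM in mature A and B (log2 fold -3.85, SE 0.28). At both, each reseeded library was well under each mature one. The peaks beginning at 52565765, 22289525 and 22109079 had log2 folds of -3.84, -3.67 and -3.36. At 22289525 the reseeded libraries differed, with 10 and 40 counts in A and B, and the fold of 12.7 was 25.9 without reseeded B.

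On chromosome 32 the peak from 11807351 to 11807851 had 0.934 and 1.07 CPM in reseeded A and B, against 17.4 and 15.1 CPM in mature A and B (log2 fold -4.00, SE 0.24, adjusted p = 1.64e-16). Of the others, 2 stood next to each other near the start of the chromosome. The peak from 30339 to 30839 had 0.992 and 1.07 CPM in reseeded A and B, against 11.8 and 22.7 CPM in mature A and B (log2 fold -4.00, SE 0.28). The peak from 32754 to 33254 had 3.73 and 4.84 CPM in reseeded A and B, against 37.0 and 54.9 CPM in mature A and B (log2 fold -3.35, SE 0.15). In this pair mature B was above mature A, and reseeded libraries were far under both. The peaks at 1222485 and 1415457 had log2 folds of -3.56 and -2.96. Both lay in the step with the most peaks of the chromosome, where 8 of 47 peaks were at least 2-fold lower.

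**Figure D5:**
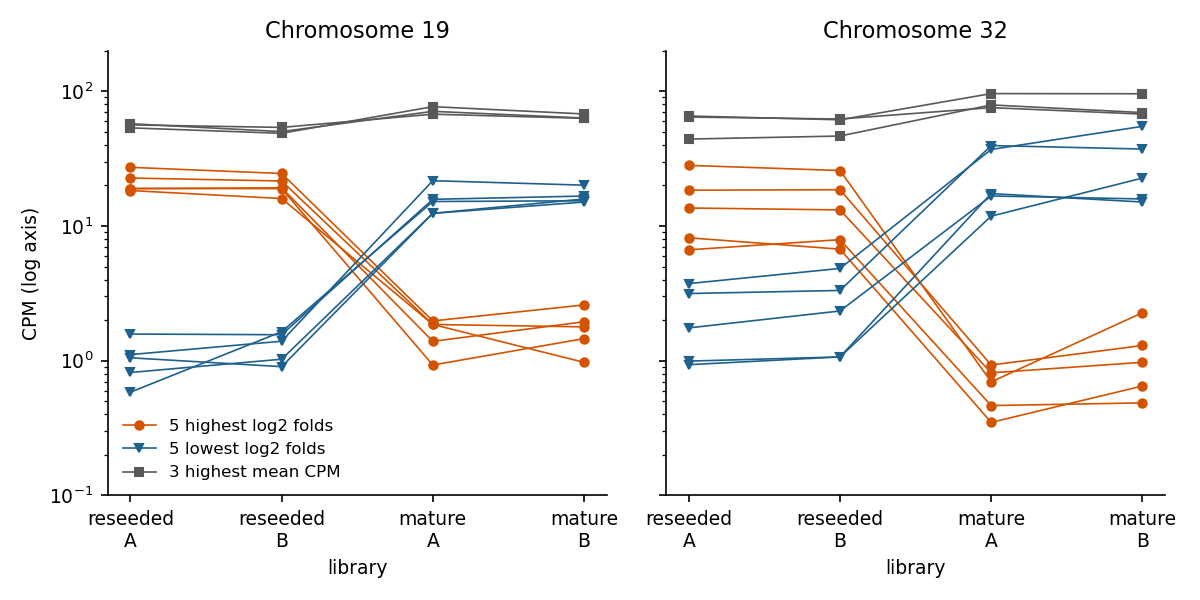
CPM (log axis) in each library at the named peaks of chromosome 19 (left) and chromosome 32 (right): the 5 highest and 5 lowest log2 folds and the 3 highest mean CPM, with a line for each peak. Gained peaks lie between 0.348 and 2.59 CPM in mature libraries, and the strongest peaks stay between 44.2 and 96.2 CPM in all 4.

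The strongest members were open in both states and slightly lower after reseeding. On chromosome 19 the peak from 38302345 to 38302845 had 53.5 and 48.8 CPM in reseeded A and B, against 76.9 and 67.9 CPM in mature A and B (log2 fold -0.52, SE 0.07, adjusted p = 6.64e-08). The peak at 22725046 had a log2 fold of -0.34 (SE 0.07), and that at 23518450 one of -0.25 (SE 0.07). On chromosome 32 the peak from 24221819 to 24222319, the strongest of all members, had 65.5 and 61.4 CPM in reseeded A and B, against 96.2 and 95.9 CPM in mature A and B (log2 fold -0.60, SE 0.07, adjusted p = 3.96e-10). The peak at 28325054 had a log2 fold of -0.72 (SE 0.07), and that at 28360731 one of -0.19 (SE 0.07). All 6 had each reseeded library under each mature one. Loess offsets turned the sign at 22725046, 23518450 and 28360731, to 0.00, 0.09 and 0.18. The call at 28360731 was lost without mature A, without either reseeded library and after thinning, and that at 23518450 without reseeded B.

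Peaks at the edges of the gaps were often gained. Of the 31 peaks that border a gap of over 1 Mb, 14 had a gain of at least 2-fold and 2 a loss. Their share of gains was 45.2%, beside 37.3% of all members and 26.9% of all peaks, and their median log2 fold was 0.65. Members 20 to 100 kb from the nearest other peak had a like share, 44.2%, and those at least 100 kb away 46.7%. Gap borders on other chromosomes were not examined. Both borders of the longest gap of chromosome 19 rose: the peak from 42589169 to 42589669 had 28.8 and 29.8 CPM in reseeded A and B, against 4.64 and 3.08 CPM in mature A and B (log2 fold 2.88, SE 0.15), and the far border is the peak at 46225039 given above. Borders of the gap from 24340442 had log2 folds of 3.09 (SE 0.36) and 1.58 (SE 0.18), and those of the gap from 5817787 had 2.51 (SE 0.27) and 0.65 (SE 0.14), all 4 called higher. The left border at 24339941, alone in its step, had 6.94 and 6.93 CPM in reseeded A and B, against 1.04 and 0.486 CPM in mature A and B, of which the last is at the floor of 3 counts. The 3 longest gaps of chromosome 32 had no such pair. Around the longest the left border rose, with 19.6 and 19.5 CPM in reseeded A and B, against 3.83 and 4.21 CPM in mature A and B (log2 fold 2.29, SE 0.16). The right border had 24.4 and 26.6 CPM in reseeded A and B, against 30.4 and 27.5 CPM in mature A and B (log2 fold -0.19, SE 0.09) and was not called. Around its second gap the log2 folds were -0.08 and 0.03, neither called, and around the third -0.71 and 1.36, both called.

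Neighbouring gains came in short strings, described after their values were seen and with no test. At least 4 neighbouring tested peaks were all at least 2-fold higher in 13 places on chromosome 19 (58 peaks) and 16 places on chromosome 32 (74 peaks). The same held for losses in 1 place on chromosome 19, with 5 peaks from 22289525 to 22326724, and in 0 places on chromosome 32. Strings of gains thus held 10.1% and 12.9% of tested peaks on chromosomes 19 and 32, against 5.56% on the other numbered chromosomes, where 1.92% lay in strings of losses. Single gains of at least 2-fold were also more frequent, at 36% and 38.6% of tested peaks against 26.8%. A higher share of gains by itself gives more strings. Whether gains lay closer together than these shares alone would give was not tested. The longest strings of gains had 6 peaks. On chromosome 19 that from 35166716 to 35210419 had a median of 19.7 CPM in reseeded and 4.40 CPM in mature cells. On chromosome 32 those from 12236307 to 12311705 and from 25904269 to 25956420 had medians of 9.45 and 10.6 CPM in reseeded cells, against 2.69 and 2.76 CPM in mature cells. Mature B exceeded mature A in these 3 strings, with median log2 ratios of 0.50, 0.46 and 0.58. A string of 5 on chromosome 19, from 47597440 to 47674520, lay in its highest window, with medians of 24.9 and 24.4 CPM in reseeded A and B, against 5.80 and 5.35 CPM in mature A and B. A string of 4 on chromosome 19, from 42589169 to 46242138, spans its longest gap. The step of chromosome 32 from 33 to 34 Mb began 4 strings, and 20 of its 33 peaks had a gain of at least 2-fold and 0 a loss of that size.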

How the data were processed

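The deposited table holds the authors' raw counts per peak for 4 ATAC-seq libraries, 2 a group. Per the submitters' processing notes, Bowtie2, MACS2 and build CanFam3.1 were used. Tool versions, the handling of duplicates, multi-mapping reads and the Tn5 shift, and how peaks were kept, are not given in the sources. Repeats can inflate counts, and a peak set picked for detection holds few peaks weak in both groups. Chromosomes were read from the sequence accessions.

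All peaks passing filterByExpr (59076 of 59081) were scaled by trimmed-mean factors and tested with edgeR 4.0.16 in R 4.3.3 (quasi-likelihood, reseeded over mature, no block), with Benjamini-Hochberg adjusted p under 0.05. Peaks were put in 1 Mb windows by midpoint. Windows with at least 5 peaks were summed and tested likewise, with trimmed-mean factors fitted on the windows. The SE of a log2 fold is the fold over the root of its F statistic. Counting intervals are exact at 95%. They and floors cover counting error only, since no molecular identifiers are named. The scripts were tested on simulated data. Peaks named on each chromosome were the 5 most raised and the 5 most lowered, taken from called peaks averaging 50 counts or more whose groups do not overlap, plus the 3 of highest mean CPM. Named windows were the 4 highest, the 4 lowest and the 3 richest in peaks, and named gaps the 3 longest. Members, lists and classes were chosen with earlier results of these data known. Summaries used numpy 2.4.6, pandas 2.3.3 and scipy 1.17.1, and figures matplotlib 3.10.9. Alternatives included DESeq2 1.42.0, voom in limma 3.58.1, other scalings, filters, windows, thinning and left-out libraries.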

Additional observations from a re-analysis of the deposited data

How the results depend on the processing

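Counts of called members and windows and the chromosome medians were taken under 168 alternatives, of which 153 stayed within 1.5 times the count or within the spread of the library pairings. Library size alone gave medians of 0.43 (chromosome 19) and 0.56 (chromosome 32), and upper-quartile factors the same. Loess offsets gave 0.0276 and 0.0806 and left 241 members at least 2-fold higher. Thinning to the shallowest total gave 0.31 on chromosome 19. With a library left out the medians were 0.33 to 0.38 (chromosome 19) and 0.48 to 0.52 (chromosome 32). Against a fold of 1.5, 653 of 1147 tested members were called and 184 lower, as small folds no longer pass. Of all tested peaks 51.65% were then called. Windows of 2 Mb gave 35 calls with 21 higher and windows of 500 kb gave 28 lower, since the number of windows changes with their size. Loess offsets turned the peaks at 22725046 (0.0044), 23518450 (0.0907) and 28360731 (0.18), and library size alone the windows of chromosome 19 from 29000001 (0.0036) and of chromosome 32 from 1000001 (0.0031) and from 1 (0.0394). The cause was not tested, except that library size alone raises all folds by a constant. The other named peaks and windows kept their direction under every alternative run. The replicate block by library letter gave 961 called members, beside 82.9% of all tested peaks, and 52 called windows. Every named peak and window stayed called. Library letters carried no sign of pairing: the deviation of A from B in reseeded cells had r = 0.0314 with that in mature cells, across all peaks. Thinning, which mainly cuts the deeper reseeded libraries, left 922 members called, beside 78.4% of all tested peaks. No genome of the build was used, so base composition was not examined.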
